A study of Peromyscus maniculatus with 16 samples.

Results

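The 7 genes described here are Myrip, Rab38, Rab32, Rab27a, Rab27b, Sytl4 and Mlph, out of 16910 genes in the count table of livers from 16 deer mice (Peromyscus maniculatus). Myrip was chosen by its measured difference between HFD livers without steatosis and control livers, and Rab38 by its measured difference between HFD livers with and without steatosis. For these 2 genes the comparisons of the diet groups are therefore given as values, without a test. The other 5 genes were added as members of the same families or pathways, and all 7 symbols were found in the table.

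The control group (C, n = 6) was fed regular chow, and 10 animals were fed a high fat diet (HFD) with sucrose for 28 weeks. Liver histology at the end of the diet divided the HFD animals into a group without steatosis (NS, n = 5) and a group with steatosis (S, n = 5). Membership of NS or S was thus an outcome of the animals and not an assigned treatment. All animals were 10 months old. Of the 16 deer mice, 13 were of the BW stock (P. maniculatus bairdii), kept as a closed captive colony, and 3 were of the SM2 stock (P. maniculatus sonoriensis), with 1 SM2 male in each group. Both stocks are outbred, so that animals within a group differ genetically. All C and NS animals were male, while S was made up of 3 BW females, 1 BW male and 1 SM2 male. Female sex and steatosis cannot be told apart in these animals outside the comparisons limited to males.

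Rab proteins are small GTPases that mark the membranes of vesicles and organelles and, when loaded with GTP, recruit effector proteins that carry, tether or fuse those membranes. Rab27a and Rab27b act on secretory granules and lysosome-related organelles. Their effectors include MyRIP (Myrip), which joins Rab27 to myosin motors and to actin, melanophilin (Mlph), which joins Rab27a to myosin Va on melanosomes, and the synaptotagmin-like protein granuphilin (Sytl4), which docks granules at the plasma membrane. Rab32 and Rab38 are close relatives of each other that sort cargo to lysosome-related organelles such as melanosomes and platelet dense granules. Most of what is known about these proteins comes from pigment cells, endocrine cells and blood cells rather than from hepatocytes.

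The files gave between 4640733 and 11349971 counted reads per animal. Totals lay between 6374518 and 11349971 in C, between 7336900 and 9362184 in NS and between 4640733 and 10892425 in S, where animals 35982 and 36016 were the 2 shallowest of the study, at 4865756 and 4640733. Of 6 hepatocyte markers, 5 were in the table and summed to between 24631 and 54270 CPM, the counts scaled to the size of the library, in every animal. Of 6 melanocyte markers, Tyr, Tyrp1, Dct and Pmel were at 0 in every animal, and all 6 together reached at most 0.144 CPM. Cytotoxic lymphocyte markers, 4 of 6 of them in the table, summed to between 1.76 and 8.44 CPM. Platelet markers, 4 of 5 in the table, summed to between 0.395 and 4.14 CPM. The livers were measured in bulk, so that fewer cells of a type and less RNA per cell cannot be told apart. All levels below are CPM normalized by the trimmed mean of M values (TMM), and levels are compared between animals and not between genes, since no gene length enters them.

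Myrip was lowest in NS and highest in C. In C the lowest level was 4.23 CPM in the SM2 animal 10876, the median was 10.8 and the highest was 16.1 in animal 35998. In NS the levels were 0.378 CPM in the SM2 animal 10865, 0.395 in 35987, 0.814 in 35937, 1.02 in 35963 and 1.70 in 35930. In S they were 0.487 CPM in the SM2 animal 10880, 1.30 in 35982, 5.91 in 35990, 6.02 in 35955 and 13.5 in 36016. The NS animals lay below every C animal, while S stretched from the NS range into the C range.

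The means were 10.7 ± 3.95 CPM (SD, n = 6) in C, 0.861 ± 0.543 (SD, n = 5) in NS and 5.45 ± 5.18 (SD, n = 5) in S. The fitted log2 fold change was -3.62 (SE 0.67) in NS vs C, a level 12.3-fold lower. In the highest NS animal 14 reads gave 1.70 CPM with a 95% exact Poisson interval of 0.928 to 2.85, and in the lowest C animal 43 reads gave an interval of 3.06 to 5.70. These intervals cover counting error only, not the spread between animals. The ranges of NS and C did not overlap for Myrip, which held for 0.989% of the 12639 genes tested. That contrast chose the gene, so nothing further is read from the share.

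Against C, Myrip in S differed by a log2 fold change of -0.98 (SE 0.57), and against NS by 2.64 (SE 0.67), a 6.24-fold higher mean in S. The 3 comparisons share their groups and are not independent of each other. The ranges overlapped in both, since S held animals at 4 reads (10880) and at 72 reads (36016). The S mean rests in part on animal 36016, without which the log2 fold change was -1.59 against C and 2.03 against NS. The standard deviation of log2(CPM + 1) was 1.33 in S, against 0.58 in C and 0.40 in NS. In order of mean level, C was followed by S and then by NS, and only C and NS had ranges that did not overlap. The place of S between them was not tested. The total counts of the NS libraries lay inside the range of C. Within the BW stock alone the log2 fold change was -3.61 (SE 0.54) in NS vs C. Stellate cell markers, all 5 of them in the table, summed to between 249 and 510 CPM in C, between 182 and 379 in NS and between 179 and 367 in S. Their medians in C, NS and S were 394, 263 and 252 CPM. Kupffer cell markers had medians of 183, 197 and 273, and sinusoidal endothelium markers 134, 137 and 143. Bile duct markers had 13.0, 11.3 and 12.0, and hepatocyte markers 33177, 39422 and 34782. The part of these cell types in the Myrip levels was not tested.

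**Figure D1:**
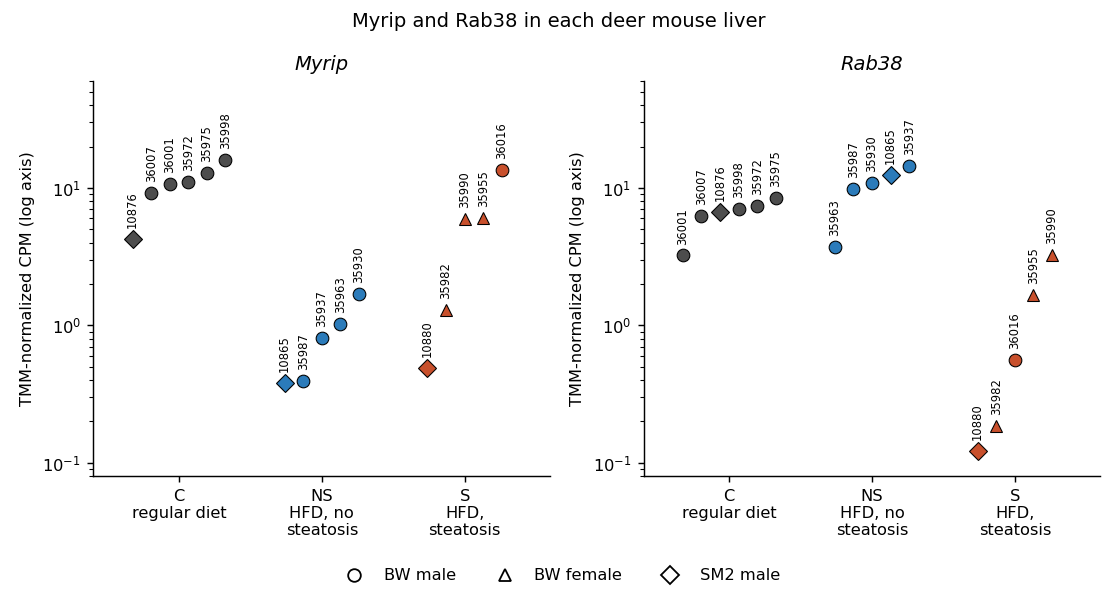
Level of Myrip (left) and Rab38 (right) in each liver, as TMM-normalized CPM on a log axis, with 1 point per animal labelled by its number, colour for the group and shape for stock and sex. The 5 NS animals sit between 0.378 and 1.70 CPM for Myrip, below all 6 C animals, and the 5 S animals sit between 0.122 and 3.24 CPM for Rab38, below all 5 NS animals.

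Rab38 followed another order, highest in NS and lowest in S. In C the lowest level was 3.23 CPM in animal 36001, the median was 6.86 and the highest was 8.46 in 35975. In NS the levels were 3.70 CPM in 35963, 9.77 in 35987, 10.9 in 35930, 12.4 in the SM2 animal 10865 and 14.5 in 35937. In S they were 0.122 CPM in the SM2 animal 10880, 0.185 in 35982, 0.563 in 36016, 1.66 in 35955 and 3.24 in 35990. The S animals thus lay below every NS animal, and 4 of them below every C animal.

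The means were 6.50 ± 1.77 CPM (SD, n = 6) in C, 10.3 ± 4.07 (SD, n = 5) in NS and 1.15 ± 1.32 (SD, n = 5) in S. The fitted log2 fold change was -3.02 (SE 0.58) in S vs NS, 8.12-fold lower in S, and -2.36 (SE 0.56) in S vs C, 5.14-fold lower. In NS vs C it was 0.66 (SE 0.49), a 1.58-fold higher mean with overlapping ranges, although 4 of 5 NS animals were above every C animal. Genes without overlap in S vs NS, as for Rab38, made up 1.18% of the genes tested. That contrast chose Rab38, so nothing further is read from the share. In S vs C, where the Rab38 ranges overlapped, genes without overlap made up 4.19%.

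The separation of Rab38 in S from the other groups was narrow at its edge and low in reads. Animals 10880, 35982 and 36016 of S held 1, 1 and 3 reads of Rab38. The highest S animal, 35990, held 34 reads, which gave an interval of 2.25 to 4.53 CPM. That overlapped both the interval of the lowest NS animal, 2.48 to 5.31, and that of the lowest C animal, 2.23 to 4.51. These 2 shallowest libraries, 35982 and 36016, were among the 3 with the fewest Rab38 reads, and without both of them the log2 fold change was -2.57 (SE 0.61) against NS and -1.92 (SE 0.59) against C. The part of depth in these levels was not tested.

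The 3 females of S had a mean Rab38 level of 1.69 ± 1.53 CPM (SD, n = 3), and the 2 males of S had 0.342 ± 0.312 (SD, n = 2). With sex as a covariate, or with males alone, the log2 fold change grew to -4.99 against NS and -4.33 against C, each time on 2 S males. Leaving out animal 35990 moved them to -3.83 and -3.17. For Myrip the S females were at 1.30, 5.91 and 6.02 CPM and lay between the 2 S males, at 0.487 and 13.5.

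Myrip and Rab38 were also set against each other. Pearson's r of log2(CPM + 1) over the 16 animals was -0.05, and 0.32 once group means were subtracted. The 3 groups took up separate regions when both genes were plotted, apart from the S female 35990, which lay next to the C animals. Myrip was chosen by its difference between NS and C, and Rab38 by its difference between S and NS. Separation of the groups was thus in part built in by that choice, and nothing further is read from it. Animals 10880 and 35982 of S were low for both genes, while 36016 of S had a Myrip level within the C range and 3 reads of Rab38.

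**Figure D2:**
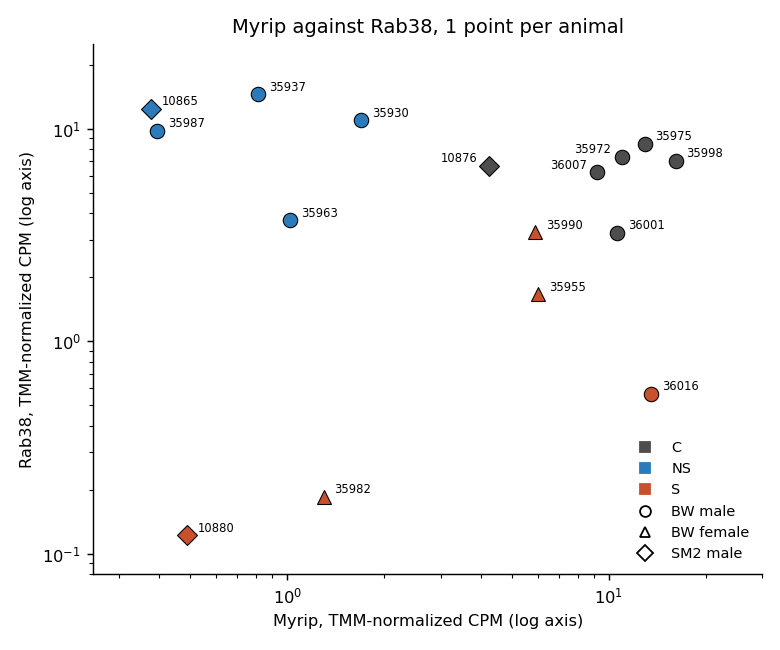
Myrip (horizontal axis) against Rab38 (vertical axis) in TMM-normalized CPM on log axes, 1 point per animal, colour for the group and shape for stock and sex. NS animals sit at low Myrip and high Rab38, C animals at high levels of both, and S animals at low Rab38 over a Myrip range of 0.487 to 13.5 CPM. Both genes were chosen by differences between these groups, so their separation here is in part a result of that choice.

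The remaining members gave no call in any comparison of diet groups. A gene was called at an adjusted p-value under 0.1 by edgeR's quasi-likelihood test with Benjamini-Hochberg adjustment over all genes tested, together with a fold change of at least 2. Of these 5 genes, 4 passed the filter on low counts, and 0 of the 4 were called in any of the 3 comparisons by edgeR or by DESeq2. DESeq2 gave no adjusted p to Mlph in any of them, nor to Rab27a in NS vs C and S vs NS, and so could not call them there. At an unadjusted p under 0.05, 1 of the 4 passed, Sytl4 in NS vs C. That limit was met by 8.29% of all genes tested in the same comparison. The shares were 23.8% for the pair S and C, and 10.9% for the pair S and NS. These 4 genes are too few to set against such shares. Over all genes tested, 3.09% were called higher and 0.965% lower in S vs C, 0.0475% higher and 0.0237% lower in NS vs C, and 0.0% higher and 0.00791% lower in S vs NS. With so few calls in both comparisons with NS, a count of 0 among 4 genes does not set these genes apart from the rest.

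Rab32, the relative of Rab38, was measured at 82 to 238 reads in C, 115 to 220 in NS and 56 to 194 in S. In C its lowest level was 9.01 CPM, its median 16.1 and its highest 23.4. In NS the levels were 14.7, 15.6, 21.7, 21.9 and 23.6 CPM, and in S they were 10.4, 11.9, 16.7, 18.5 and 21.8. All 3 ranges overlapped over most of their length. The log2 fold change was -0.30 (SE 0.26, edgeR adjusted p = 0.695) in S vs NS, -0.04 (SE 0.25, adjusted p = 0.936) in S vs C and 0.26 (SE 0.25, adjusted p = 0.830) in NS vs C. The small value in S vs C changed sign with the animals entered, so no direction is given for it. The difference between Rab32 and Rab38 in their response was not tested.

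The mean of Sytl4 was lowest in NS, while its median was lowest in S. Its lowest, median and highest levels in C were 1.77, 3.26 and 4.06 CPM. In NS it was at 0.882, 1.40, 1.90, 2.30 and 2.67 CPM, and in S at 1.74, 1.83, 1.85, 3.00 and 3.24. The C and NS ranges overlapped between 1.77 and 2.67 CPM. The means of 3.06 ± 0.810 (SD, n = 6) and 1.83 ± 0.709 (SD, n = 5) gave a log2 fold change of -0.73 (SE 0.33) in NS vs C, at an unadjusted p of 0.0430 and an adjusted p of 0.594 by edgeR. Over 26 alternative fits that adjusted p lay between 0.408 and 0.918. In S vs C the log2 fold change was -0.39 (SE 0.33, adjusted p = 0.497 by edgeR) and in S vs NS 0.34 (SE 0.35, adjusted p = 0.745). Over the 16 animals Sytl4 and Myrip had a Pearson's r of 0.66, and of 0.37 after group means were subtracted. Both values share the same libraries and are given as a description.

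The Rab27 GTPases themselves were near or below the limit of detection. Rab27a held 0 to 12 reads per animal, with means of 0.771 ± 0.341 CPM (SD, n = 6) in C, 0.707 ± 0.228 (SD, n = 5) in NS and 0.795 ± 0.518 (SD, n = 5) in S. Its log2 fold changes were 0.05 (SE 0.56) in S vs C, -0.13 (SE 0.57) in NS vs C and 0.18 (SE 0.59) in S vs NS, with edgeR adjusted p-values of 0.971, 0.980 and 0.944. At these read numbers a 2-fold difference, 1 unit on the log2 scale, was less than 2 standard errors and not detectable. In animal 36016 of S no read of Rab27a was counted, which allows up to 0.563 CPM. Rab27b had 0 reads in all 16 animals. Taking 3 reads as the floor, a count of 0 allows a level of up to 0.262 to 0.563 CPM, depending on the depth of the library.

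Mlph was at 0 reads in 5 of 6 C, 3 of 5 NS and 3 of 5 S animals. The highest value was 8 reads (0.763 CPM) in animal 35990 of S, followed by 3 reads in animal 10880 of S, and the remaining animals with reads had 1 or 2. The gene passed the filter through animal 35990 alone. Summed over the groups there were 11 reads in S, 2 in NS and 2 in C. The ratio of S to C was 6.76 with a counting interval of 1.48 to 62.8, and the fitted log2 fold change was 2.31 (SE 1.19, edgeR adjusted p = 0.245). The ratio of S to NS was 5.59 with a counting interval of 1.22 to 51.9 (edgeR adjusted p = 0.556). Both intervals pool the reads of a group and leave out the spread between animals, and 8 of the 11 S reads came from animal 35990. No group difference is read from them. Melanophilin is best known from melanocytes, of which 4 markers were at 0 in these livers. Animal 35990 also had the highest sums in S of 5 bile duct markers (35.0 CPM, against 6.67 to 16.5 in the other S animals) and of 4 Kupffer cell markers (515 CPM, against 74.2 to 291). Its sums of stellate cell (367 CPM), sinusoidal endothelium (192 CPM) and cytotoxic lymphocyte markers (7.82 CPM) were the highest in S too. Its platelet sum (0.954 CPM) was not, and its hepatocyte sum (24631 CPM) was the lowest in S. The part of these cell types in the Mlph reads was not tested.

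**Figure D3:**
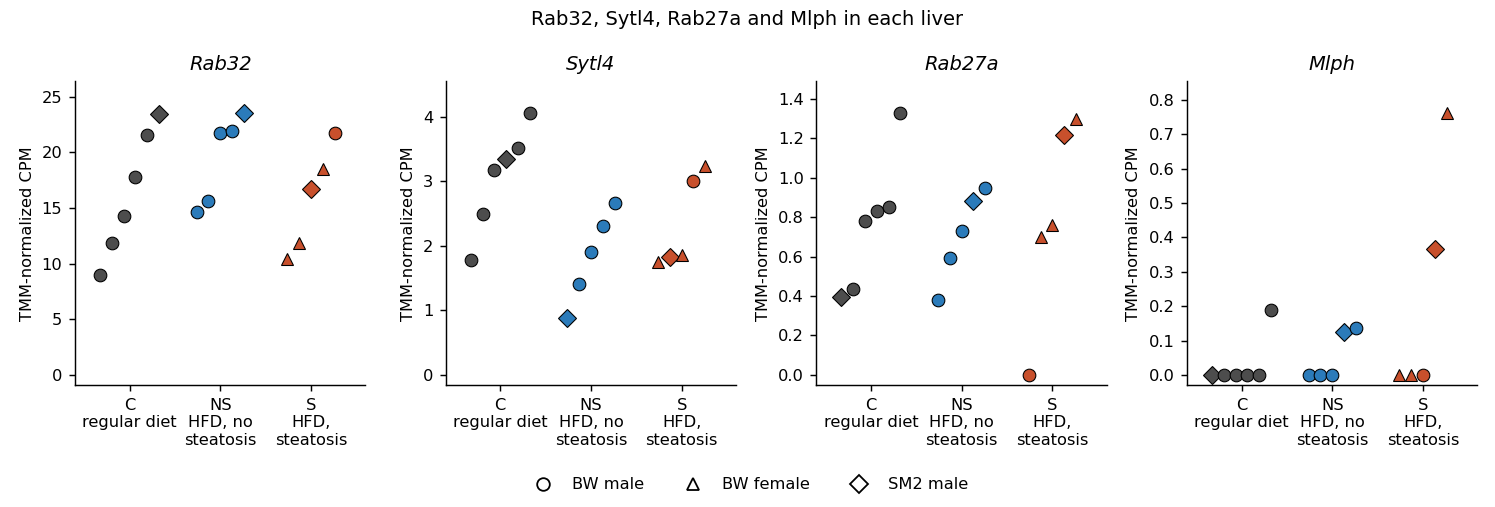
Levels of Rab32, Sytl4, Rab27a and Mlph in each liver as TMM-normalized CPM on linear axes that differ between panels, with 1 point per animal, colour for the group and shape for stock and sex. Groups overlap in each panel, and Mlph is at 0 in 11 of 16 animals.

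The comparison of the stocks was not used to choose any member and was tested for all 6 genes above the filter, with the diet group as a covariate. Myrip was lower in SM2 than in BW. In each group the SM2 animal had the lowest Myrip level, at 4.23 CPM against 9.21 to 16.1 in BW animals of C, at 0.378 against 0.395 to 1.70 in NS, and at 0.487 against 1.30 to 13.5 in S. In NS that margin amounted to 3 reads against 4. The mean was 1.70 ± 2.19 CPM (SD, n = 3) in SM2 and 6.96 ± 5.59 (SD, n = 13) in BW, and the ranges over all groups overlapped. The log2 fold change was -2.03 (SE 0.59), 4.07-fold lower in SM2, at an adjusted p of 0.0279 by edgeR's quasi-likelihood test.

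The Myrip call rested on animal 10880 of S. Without it the log2 fold change was -1.43 and the adjusted p was 0.212 by edgeR, while over the other alternatives the adjusted p lay between 0.00315 and 0.0666. Calls were frequent between the stocks, with 5.91% of genes called higher and 4.93% lower in SM2, and Myrip was 1 of 6 members tested. With 3 SM2 animals, each in another diet group, a stock effect that differs between diets could not be examined.

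For Rab38 the difference between the stocks was -0.23 on the log2 scale (SE 0.53, edgeR adjusted p = 0.809), and its sign changed with sex as a covariate. Rab32 was highest in the SM2 animal in C (23.4 CPM) and in NS (23.6 CPM) and within the BW range in S, with a log2 fold change of 0.38 (SE 0.24, adjusted p = 0.311). Sytl4 differed by -0.38 (SE 0.34, adjusted p = 0.494). Rab27a and Mlph had log2 fold changes of 0.14 (SE 0.58) and 0.54 (SE 1.23), with adjusted p-values of 0.896 and 0.805. None of these 5 passed the test.

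**Figure D4:**
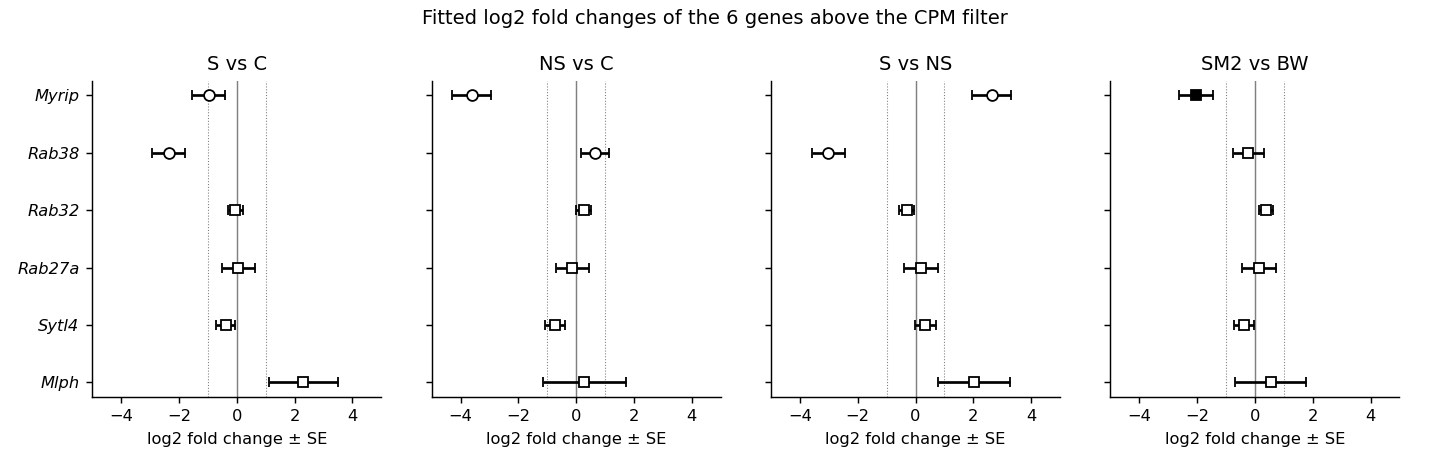
Fitted log2 fold changes with their standard errors for the 6 genes above the CPM filter in the 3 comparisons of diet groups and between the stocks, with dotted lines at a fold change of 2. Circles are Myrip and Rab38 in comparisons that were not tested, squares were tested, and the 1 filled square is Myrip in SM2 vs BW, at -2.03.

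The nearest tested genes on either side of Myrip and Rab38, none of them directly adjacent, gave no call in the comparison by which each was chosen. Of all genes tested, 0.0475% were called higher and 0.0237% lower in NS vs C. In S vs NS the shares were 0.0% and 0.00791%. With calls so rare, their absence does not set these neighbours apart from other genes. In the RefSeq order of a deer mouse assembly other than the one the reads were aligned to, the neighbours are Slc25a38 and Eif1b, 8 and 2 genes away from Myrip, and Ctsc and Tmem135, 2 and 4 genes away from Rab38. In NS vs C, Slc25a38, a mitochondrial glycine carrier, had a log2 fold change of 0.21 (SE 0.15, edgeR adjusted p = 0.734) and Eif1b, a translation initiation factor, -0.23 (SE 0.21, adjusted p = 0.808). In S vs NS, Ctsc, the protease cathepsin C, had -0.17 (SE 0.23, adjusted p = 0.808) and Tmem135 had 0.00 (SE 0.20, adjusted p = 1.00). Between the stocks Ctsc was lower in SM2 by a log2 fold change of -0.83 (SE 0.15, adjusted p = 0.00129) and Tmem135 by -0.53 (SE 0.17, adjusted p = 0.0405), both under the fold limit of a call.

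Genes of the same machinery were then counted from a list of 49 genes, of which 43 were in the table and all 43 were tested. The list holds other Rab27 effectors and motors, regulators of Rab27, regulators and effectors of Rab32 and Rab38, the complexes that sort cargo to lysosome-related organelles, the enzymes that prenylate and recycle Rabs, and further partners of MyRIP. In S vs C, 2 were called higher and 0 lower, a share of 4.65% close to the 3.09% higher and 0.965% lower over all genes tested. Of the 2, Sytl5 passed the filter on low counts only through S animals. An unadjusted p under 0.05 was found for 8, against 23.8% of all genes. The median log2 fold change of the list was 0.09, against 0.10 over all genes tested. For the pair NS and C and the pair S and NS, 0 of 43 were called by edgeR or DESeq2. There, 1 and 4 had an unadjusted p under 0.05, against 8.29% and 10.9% of all genes. The medians were 0.02 and 0.08, against 0.01 and 0.04 over all genes.

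The genes called in S vs C were Lyst and Sytl5. Lyst, whose loss gives the enlarged lysosomes and granules of Chediak-Higashi syndrome, rose from 14.0 ± 5.06 CPM (SD, n = 6) in C to 31.0 ± 9.51 (SD, n = 5) in S. In C it lay between 7.32 and 20.5 CPM, and in S it was at 22.0, 22.8, 30.6, 34.4 and 45.2. The ranges did not overlap, which held for 4.19% of the genes tested in S vs C. The log2 fold change was 1.15 (SE 0.30, edgeR adjusted p = 0.0452), and 24 of 26 alternative fits gave the call, with adjusted p-values of 0.00699 to 0.186 over all of them. The call was lost without animal 35982 of S, at a log2 fold change of 0.98, and without the 2 shallowest libraries, at 0.92. NS lay between, at 23.1 ± 8.89 CPM (SD, n = 5), with a log2 fold change of 0.73 in NS vs C (SE 0.30, adjusted p = 0.577).

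Sytl5, which encodes another synaptotagmin-like Rab27 effector, was called in S vs C on very few reads. It reached 0.5 CPM in 3 animals, all of S, and so entered the test through the group where it was high. C held 0 or 1 read per animal and 2 in all, and S held 1, 2, 4, 4 and 12, the last in animal 35990. The ratio of S to C was 14.1 with a counting interval of 3.49 to 124, which leaves out the spread between animals. The edgeR adjusted p was 0.0469 (0.0365 to 0.146 over the alternatives), while DESeq2 gave Sytl5 no adjusted p in this comparison. The call was lost with sex as a covariate and in males alone, at adjusted p-values of 0.121 and 0.129 by edgeR, without animal 36007 of C, at 0.101, and without the 2 shallowest libraries. Animal 35990, with the highest sums in S of several non-hepatocyte markers and the lowest of hepatocyte markers, also had the most reads of Mlph. Without it the log2 fold change of Sytl5 was 3.05 (adjusted p = 0.0839 by edgeR), against 3.50 (SE 0.92) with it.

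Among the subgroups of the list, the 10 Rab27 effectors and motors had 1 call in S vs C and a median log2 fold change of 0.29. That call was Sytl5, which passed the filter only through S animals. The 14 tested genes of sorting complexes had 1 call (Lyst) and a median of -0.08. The 3 tested regulators of Rab27, the 5 regulators and effectors of Rab32 and Rab38, the 7 prenylation and recycling genes and the 4 further MyRIP partners had 0 calls in S vs C by edgeR or DESeq2. In the same order, 1, 1, 3 and 0 genes had an unadjusted p under 0.05, against 23.8% of all genes. These groups are too small to set against that share.

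Between the stocks, 1 of the 43 machinery genes was called higher in SM2 and 2 lower, a share of 6.98%, below the sum of the 5.91% called higher and 4.93% called lower over all genes. An unadjusted p under 0.05 was found for 9, against 29.1% of all genes, and the median was -0.04, as it was over all genes. These 3 genes are named because they were called, after their values were seen. Bloc1s5, a subunit of the BLOC-1 sorting complex, was at 14.0, 14.2 and 16.0 CPM in the SM2 animals and between 24.0 and 43.1 in the 13 BW animals. Its log2 fold change was -1.20 (SE 0.17, edgeR adjusted p = 0.000151), and all 23 alternative fits gave the call. Tbc1d10c, a GTPase-activating protein of the family that acts on Rab27, fell by 1.37 on the log2 scale (SE 0.32, adjusted p = 0.00869), from 3.83 ± 0.924 CPM (SD, n = 13) in BW to 1.46 ± 0.507 (SD, n = 3) in SM2.

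Myo5a, the myosin motor that melanophilin binds, was called higher in SM2 with a log2 fold change of 2.38 (SE 0.63, edgeR adjusted p = 0.0168), but its levels did not follow the stock. Animal 10876 of C had 28.2 CPM, and 3 animals of S had 14.0 (35990), 15.0 (10880) and 15.2 (36016), while the other 12 animals, with the SM2 animal of NS among them, were between 0.971 and 2.97. Without animal 10876 the log2 fold change was 0.55 and the adjusted p 0.579, with 0.00167 as the lowest over the alternatives. Of the 4 high animals, 2 were SM2 and 2 were BW.

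Of 54 other Rab GTPases, 52 were in the table and 46 were tested. In S vs C, 1 was called higher and 0 lower, a share of 2.17% that is not above the 3.09% higher and 0.965% lower over all genes. At an unadjusted p under 0.05 there were 8, against 23.8% of all genes, and the median log2 fold change was 0.02, against 0.10 over all genes. For the pair NS and C and the pair S and NS, 0 were called by edgeR or DESeq2. There, 1 and 3 had an unadjusted p under 0.05, against 8.29% and 10.9% of all genes, with medians of 0.01 and -0.02. The gene called was Rab8b, which acts in transport to the plasma membrane and to cilia. It was at 2.17 ± 0.464 CPM (SD, n = 6) in C and at 2.07, 3.53, 3.92, 5.19 and 7.88 in S, of which the lowest lay within the C range. Its log2 fold change was 1.05 (SE 0.34, edgeR adjusted p = 0.0803), and 15 of 26 alternative fits gave the call, with adjusted p-values of 0.0404 to 0.400. It ended with sex as a covariate, in males alone and with only the 2 groups compared, at adjusted p-values of 0.128, 0.164 and 0.102 by edgeR, and with stock as a covariate, where the fold change fell just under the limit. Leaving out any 1 of animals 10876, 35975, 36001 and 36007 of C or 35982 and 36016 of S, or both of the latter, ended it too, and without animal 36016 the log2 fold change was 0.76.

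Between the stocks, 1 of the 46 was called higher in SM2 and 1 lower, a share of 4.35%, against 5.91% higher and 4.93% lower over all genes. The 2 genes are named because they were called, after their values were seen. Rab23, a regulator of Hedgehog signalling, was higher in SM2 with a log2 fold change of 1.02 (SE 0.32, edgeR adjusted p = 0.0405). Rab31, an endosomal Rab, was lower with -1.57 (SE 0.56, adjusted p = 0.0709 by edgeR). The call of Rab23 was given by 14 of 23 alternative fits, in part because its fold change lay close to the limit, and without the SM2 animal of NS, 10865, its log2 fold change was 0.66 (adjusted p = 0.362, with 0.0187 as the lowest over the alternatives). The call of Rab31 was given by 19 of 23 and was lost without animal 10865 of NS, without animal 10880 of S, and with sex as a covariate or males alone, at adjusted p-values of 0.317, 0.295, 0.147 and 0.126 by edgeR. Of the 46, 10 had an unadjusted p under 0.05, against 29.1% of all genes, and the median was -0.10, against -0.04 over all genes.

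**Figure D5:**
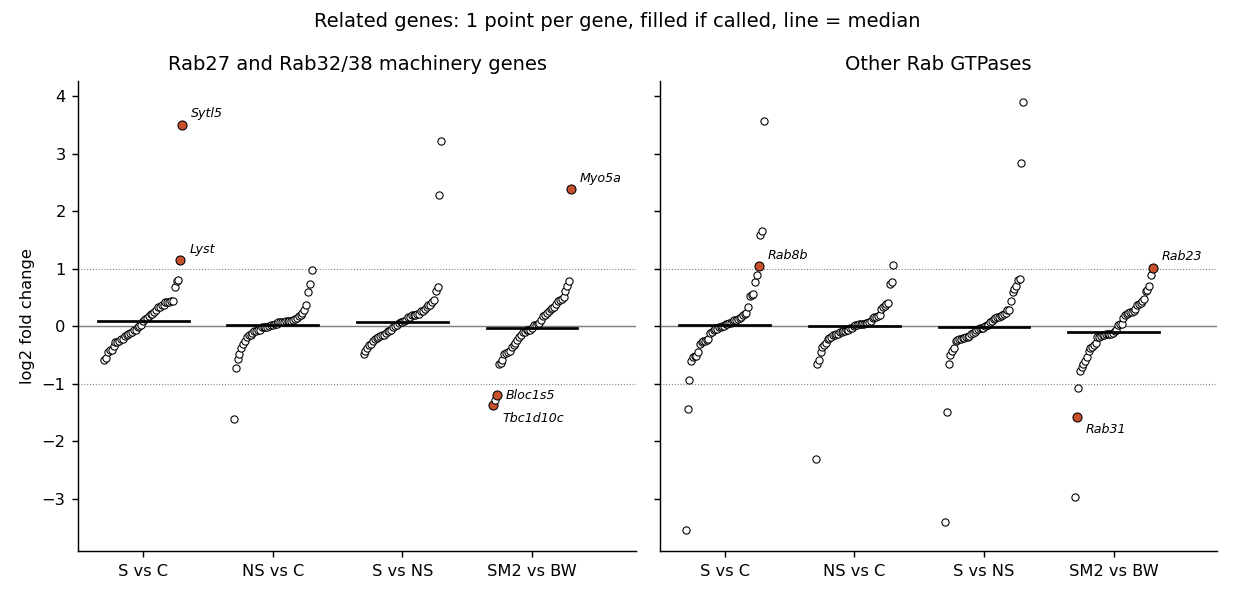
Fitted log2 fold changes of the 43 machinery genes (left) and the 46 other Rab GTPases (right) in each comparison, 1 point per gene, with the median as a line and dotted lines at a fold change of 2. Filled and named points were called, and the unfilled points beyond the dotted lines did not pass the test. Medians lie between -0.10 and 0.09.

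The genes whose levels followed Myrip most closely were sought among 10325 tested genes with a mean of at least 1 CPM, by Pearson's r of log2(CPM + 1) over the 16 animals. Most alike were Thbd, the endothelial anticoagulant receptor thrombomodulin, with an r of 0.84, Ces1f, a liver carboxylesterase, with 0.82, and Tsacc, a co-chaperone, with 0.80. After subtraction of group means these became 0.57, 0.59 and 0.59. Ces1f had medians of 30.5 CPM in C, 4.59 in NS and 22.8 in S, in the same order as Myrip. As Ces1f belongs to a family of near-identical genes, its counts are uncertain. Most opposite were Slc39a13, a zinc transporter, with -0.89, Abcb10, a mitochondrial transporter, with -0.87, and Uba7, the enzyme that activates ISG15, with -0.83. They kept -0.74, -0.79 and -0.76 within groups. Abcb10 had medians of 17.1 CPM in C, 26.2 in NS and 21.5 in S.

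For Rab38 the most alike were Blvra, biliverdin reductase A, with an r of 0.84, Rbp4, the plasma carrier of retinol made by hepatocytes, with 0.81, and Cmtm8, a membrane protein, with 0.79. Within groups these were 0.43, 0.49 and 0.66. Rbp4 had medians of 7475 CPM in C, 6659 in NS and 4323 in S. Most opposite were Cdh2, which encodes N-cadherin, with -0.83, Srbd1 with -0.80, and Atp2a3, a calcium pump of the endoplasmic reticulum, with -0.78, which became -0.42, -0.50 and -0.54 within groups. The genes were picked as extremes among many, and the points share libraries and depth, so these values are a description. When ranks were used in place of Pearson's r, 2 of the 6 genes were again among those picked for each of Myrip and Rab38.

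The composite correlation index of the study, Pc, was calculated for the members with enough reads. Pc is Pearson's r between a gene's correlations with all other genes in 1 group and the same correlations in another group, so that a value near 1 means the gene kept its relations to the transcriptome and a negative value means that they were inverted. Over 13431, 13336 and 13385 genes, for C against S, C against NS and NS against S in turn, Pc of Myrip was 0.247, 0.249 and 0.197, with jackknife standard errors over animals of 0.245, 0.314 and 0.302. Pc of Rab38 was -0.236 (SE 0.246), 0.0426 (SE 0.192) and 0.0134 (SE 0.198). With 5 or 6 animals behind each correlation, none of these values of Rab38 was further from 0 than its standard error, and that of Myrip in S vs C exceeded it barely.

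Rab32 had Pc values of 0.0463, 0.148 and 0.0371 in the same order, and Sytl4 had -0.0045, -0.0243 and 0.236, the last with a standard error of 0.203. On CPM instead of counts as deposited, Pc of Myrip was 0.206 against C and 0.0860 against NS for S, and -0.0490 for NS vs C, where leaving out 1 animal gave -0.0485 to 0.322 on counts. Pc of Rab38 on CPM was -0.229 for S vs C, 0.0519 for NS vs C and -0.176 for S vs NS, the last between -0.294 and -0.0927 with 1 animal left out.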

How the data were processed

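RNA from the livers of 16 deer mice was sequenced as paired-end reads. Per the labels and methods, the authors prepared directional libraries, aligned reads with STAR 2.7.2 to HU_Pman 2.1 and used featureCounts with the Ensembl annotation to count reads that mapped uniquely. The deposited values are raw counts per gene symbol, without normalization. The strand setting of the counting and the conversion to symbols are not given in the sources used here, so overlapping and antisense genes and close paralogs are uncertain. There were 0 rows naming no gene and 0 columns without an animal.

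Groups, stock and sex were taken from the labels. The members and gene lists were chosen with earlier results of these data known. Counts were tested in R 4.3.3 with edgeR 4.0.16 (glmQLFit and glmQLFTest, TMM, limma 3.58.1) for the 12639 genes that reached 0.5 CPM in 1 or more animals, with all 16 animals in 1 fit. SM2 vs BW was fitted with group and stock as terms. As in the study, a call needed a Benjamini-Hochberg adjusted p under 0.1 together with a change of 2-fold or more. P-values set each difference against the spread between animals. Genes named beyond the members were the called genes of each list with the smallest adjusted p, and the 3 genes with the highest and the 3 with the lowest r for Myrip and for Rab38.

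Single counts carry 95% exact Poisson intervals, and the floor was 3 counts, both for counting error only. Ratios of summed counts carry exact binomial (Clopper-Pearson) intervals, which leave out the spread between animals. Pc was calculated on counts with Python 3.11.15, using scipy 1.17.1, pandas 2.3.3 and numpy 2.4.6, and matplotlib 3.10.9 drew the figures. Fits and Pc were tested on simulated data. The alternatives were DESeq2 1.42.0, its size factors, no filter, filterByExpr, stock or sex as a covariate, males only, BW only, only the groups compared, other limits, CPM by total count for Pc, ranks for the likeness, and each animal left out. The fit without the 2 libraries of fewest counts was chosen after seeing the data. RefSeq gene names and gene order came from assembly HU_Pman_BW_mat_3.1, which differs from the authors' build, so no coordinates are given.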

Additional observations from a re-analysis of the deposited data

Results flagged for a closer look

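Among 42 group distributions checked for an animal far from the rest of its group, 5 held such an animal. Chance flags about 1 in 20, but 3 of the 5 are SM2 animals for genes that were entered because they were called in SM2 vs BW, so the count is not read against that rate. For Rab38 it was animal 36001 of C, with 3.23 CPM (34 reads) below the other C animals, which started at 6.21. For Mlph it was the same animal, with 0.190 CPM (2 reads) where the other 5 C animals had 0. For Bloc1s5 it was the SM2 animal in C, with 14.0 CPM (animal 10876), and the SM2 animal in NS, with 14.2 CPM (animal 10865), both below all BW animals of their group. For Myo5a it was animal 10876 of C, with 28.2 CPM, against 0.971 to 2.35 in the other C animals.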

How the results depend on the processing

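Of the recalculated log2 fold changes of the members, 555 kept their direction and their call or stayed within the spread of the animals, 6 moved by more, 1 lost its call and 27 turned sign, the last for genes with few reads or differences near 0. For Rab32 in S vs C (-0.04) these were 0.23 with sex as a covariate, 0.23 in males and 0.069 in BW, and from -0.18 to 0.089 with 1 animal left out. For Rab27a in S vs C (0.05) they were -0.24 with sex, -0.24 in males and -0.30 in BW, and from -0.16 to 0.34 with 1 animal left out. In S vs NS Rab27a (0.18) gave -0.11 with sex and -0.11 in males, and from -0.029 to 0.47 with 1 left out. With 1 left out Rab27a ranged from -0.27 to 0.10 in NS vs C and from -0.24 to 0.61 in SM2 vs BW. Mlph in NS vs C (0.29) was -0.47 in BW, and from -0.23 to 2.08 with 1 left out. Rab38 in SM2 vs BW (-0.23) was 0.071 with sex and 0.083 in males, and from -0.65 to 0.23 with 1 left out. The causes were not tested.

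The count of members called in SM2 vs BW ranged from 0 to 1 with 1 animal left out, with 0 without animal 10880 of S. Machinery genes called in S vs C numbered 2, and 1 with DESeq2, 1 with filterByExpr, 0 without the 2 libraries of fewest counts and 1 to 3 with 1 animal left out, with 1 without animal 35982 of S or 36007 of C. Other Rab GTPases called in S vs C numbered 1, and 0 with stock as a covariate, 2 with sex, 0 with only the groups compared, 0 without those 2 libraries, 0 at an adjusted p under 0.05, 2 without the fold limit and 0 to 3 with 1 animal left out, with 3 without animal 35972 of C. DESeq2 gave no adjusted p to Sytl5 in S vs C, to Mlph in any comparison, or to Rab27a in NS vs C and S vs NS. With filterByExpr, and without animal 35990, Mlph had no value. No paired analysis was possible because the replicate numbers follow accession order and tie no animals together. Depth limits Rab27a, Rab27b, Mlph and Sytl5, with 12 or fewer reads per animal, and Rab38 in S, with 3 or fewer reads in 3 animals.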
